A study of Mus musculus with 14 samples.

Results

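Nocturnin and 8 other outputs of the circadian clock were followed in mouse liver with and without the AMP-activated protein kinase (AMPK). The genes were Noct, Dbp, Tef, Hlf, Nfil3, Ciart, Bhlhe40, Bhlhe41 and Usp2, 9 of 19505 named genes on the arrays, and each was measured by 1 array row. They were picked by name as clock-controlled outputs, but the set was chosen by someone who had seen the knockout against control values of these same arrays. Those values are therefore given as a description and support nothing: their intervals show precision only, and where a gene is counted among those past the threshold of the fit over all genes, that count is no independent test.

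All mice were male, of C57BL/6 background, and homozygous for floxed alleles of both catalytic AMPK subunit genes, AMPK alpha1 (Prkaa1) and alpha2 (Prkaa2). A floxed gene is intact until Cre recombinase cuts out the flanked part. High-fat feeding (60% of calories) began at 6 weeks of age and had run for 4 weeks when an AAV8 virus was given by the jugular vein at 10 weeks. Its TBG promoter is active in hepatocytes, so Cre acts in these cells and not in the other cells of the liver. The 6 control samples had the empty vector and the 8 knockout samples the Cre vector. Both groups then received metformin at 50 mg/kg per day for 3 weeks, so no group lacked the drug, and livers were taken after a 16 h fast. An age of 4 months is labelled, which injection at 10 weeks followed by 3 weeks of metformin does not by itself reach. The hour of collection is not given in the sources used here. The labels do not say that every sample came from its own mouse, so the spread between samples may be partly technical.

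The molecular clock is a feedback loop. The activators Clock and Arntl (BMAL1) switch on, through E-box elements in DNA, the genes for their own repressors and a layer of output regulators that pass the rhythm on to metabolism. In that layer Dbp, Tef and Hlf are activators of the PAR bZIP family that bind D-box elements, and Nfil3 (E4BP4) is a repressor that competes for the same elements. Nocturnin is among the most rhythmic transcripts of mouse liver; it belongs to a family of CCR4-type nucleases that shorten poly(A) tails, its purified enzyme removes a phosphate from NADP(H), and mice that lack it resist fat gain on a rich diet.

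The start regions of these genes are shown because E-boxes and D-boxes are the elements by which the clock reaches its outputs. The 250 bases before the start were taken from RefSeq (GRCm38.p6), which gave 9 windows for 8 genes, Tef having 2, and none for Bhlhe40. Both strands were searched for the E-box CACGTG, its variant CACGTT, the D-box TTATGTAA and the cyclic AMP response element TGACGTCA. Noct (chr3:51224197-51224446, plus strand) is shown as the gene with the largest difference, Ciart (chr3:95882229-95882478, minus strand) as the gene with most matches, and Usp2 (chr9:44084670-44084919, plus strand) as the next highest difference above 0. Matches are in capitals, and each run reads 5′ to 3′ on the strand of the gene.
Noct: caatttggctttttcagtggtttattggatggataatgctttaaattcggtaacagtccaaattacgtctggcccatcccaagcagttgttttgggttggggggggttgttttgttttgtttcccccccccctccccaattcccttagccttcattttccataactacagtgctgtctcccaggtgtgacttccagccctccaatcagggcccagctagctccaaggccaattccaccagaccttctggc
Ciart: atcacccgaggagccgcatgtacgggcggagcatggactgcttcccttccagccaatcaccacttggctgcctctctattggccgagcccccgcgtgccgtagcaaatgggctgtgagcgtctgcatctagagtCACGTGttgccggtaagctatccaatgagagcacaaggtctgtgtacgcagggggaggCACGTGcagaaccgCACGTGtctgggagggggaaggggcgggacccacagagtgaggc
Usp2: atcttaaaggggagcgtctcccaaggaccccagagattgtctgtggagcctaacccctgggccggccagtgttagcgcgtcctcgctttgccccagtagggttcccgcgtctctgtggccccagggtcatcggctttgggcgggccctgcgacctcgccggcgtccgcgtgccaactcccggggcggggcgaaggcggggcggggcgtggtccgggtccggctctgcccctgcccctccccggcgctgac
Ciart held 3 E-boxes, at 44, 58 and 116 bases before the start, while the windows of Noct and Usp2 held none of the 4 motifs. Among the windows not printed, each of those of Tef held 1 E-box, that of Bhlhe41 held 1, and that of Hlf held 1 cyclic AMP response element. CACGTG was thus found in 4 of 9 windows, against 6.02% of 32851 windows of the same length over all genes. The shares over all windows were 3.85% for CACGTT and 0.82% for TTATGTAA, neither found in the 9 windows, and 1.55% for TGACGTCA. A match only describes the letters of this window.

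The correlations between arrays split them into 2 sets, a split on which the labels are silent. Control 1 to 3 and knockout 1 to 4 formed set 1, and control 4 to 6 and knockout 5 to 8 formed set 2. The correlation between arrays was 0.988 to 0.994 within a set and 0.951 to 0.963 across sets, so values are given by set and every difference was fitted with array set as a covariate. Control 1 and control 4 stood apart: their mean over 10 liver endothelium markers differed from that of the remaining controls in the same set by -1.16 and -0.77, and over 9 Kupffer cell markers by -0.82 and -0.43, on the log2 scale. The other cell lists were lower too, at -0.61 and -0.21 for stellate, -0.64 and -0.14 for bile duct and -0.28 and -0.09 for lymphocyte markers. Hepatocyte markers did not share this, at 0.08 and 0.03, and the lowest mean level of the 10 was 10.2 (Hnf4a). In tissue RNA, fewer cells of a type and less RNA per cell cannot be told apart. Knockout 7 and 8 carry, in their descriptions, the same numbers as knockout 5 and 6, and were counted as samples of their own. The targeted genes were lower in knockout. Prkaa2 had means of 8.84 in controls and 7.73 in knockouts of set 1 and 9.77 and 8.63 in set 2, and Prkaa1 had 6.54 and 6.05, and 7.35 and 6.49. Prkaa2 differed by -1.13 ± 0.08 (SE; limma adjusted p = 1.92e-06) and Prkaa1 by -0.67 ± 0.13 (SE; limma adjusted p = 0.0302), with the same exact two-sided permutation p of 8.16e-04 for both, the smallest that 1225 splits within the sets can give. The Prkaa1 call held in 6 of 14 fits that each left out 1 array (adjusted p up to 0.0770). Which exons the rows cover is not known here.

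Noct was higher in the knockout livers, by 0.98 ± 0.15 (SE) on the log2 scale, or 1.97-fold (95% interval 1.58 to 2.46; n = 6 and 8). In set 1 the log2 level was 5.77, 6.02 and 6.04 in the controls and 6.78, 6.37, 7.34 and 6.60 in the knockouts. In set 2 it was 6.33, 6.18 and 6.75 in the controls and 7.30, 7.37, 7.98 and 7.52 in the knockouts. Every knockout sample lay above every control of its own set, 8 of 8, although knockout 2 (6.37) and knockout 4 (6.60) of set 1 were below control 6 (6.75) of set 2. Within each set the groups did not overlap.

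By group and set, Noct ran from 5.94 ± 0.15 (SD, n = 3) in controls of set 1 and 6.42 ± 0.30 (SD, n = 3) in controls of set 2 to 6.77 ± 0.41 (SD, n = 4) in knockouts of set 1 and 7.54 ± 0.31 (SD, n = 4) in knockouts of set 2. Neighbours in the middle of this order overlapped, since control 6 lay above 2 of the knockouts of set 1, and at the top knockout 3 of set 1 (7.34) lay above knockout 5 of set 2 (7.30). The knockout difference was 0.83 in set 1 and 1.13 in set 2. The gap between these, 0.30 ± 0.30 (SE), did not pass the test (limma interaction, adjusted p = 0.998). Leaving out control 1 and control 4 gave 0.91 ± 0.18 (SE), and leaving out knockout 7 and 8 gave 0.86 ± 0.15 (SE). In neither of these fits was Noct past the threshold used over all genes.

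Noct had the sixth highest difference of the 19505 genes. In the limma fit 137 genes were called (adjusted p under 0.05), 0.702% of all genes, 84 higher (0.431%) and 53 lower (0.272%) in knockout. With all 14 arrays Noct was among the genes called higher, 1 of the 9 clock outputs, and 0 of 9 were called lower. Because the knockout contrast chose these genes, nothing is read from that count. Complete separation of the groups in both sets was seen for Noct alone among the 9; over all genes it occurred upward in 0.774% and downward in 0.538%.

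**Figure D1:**
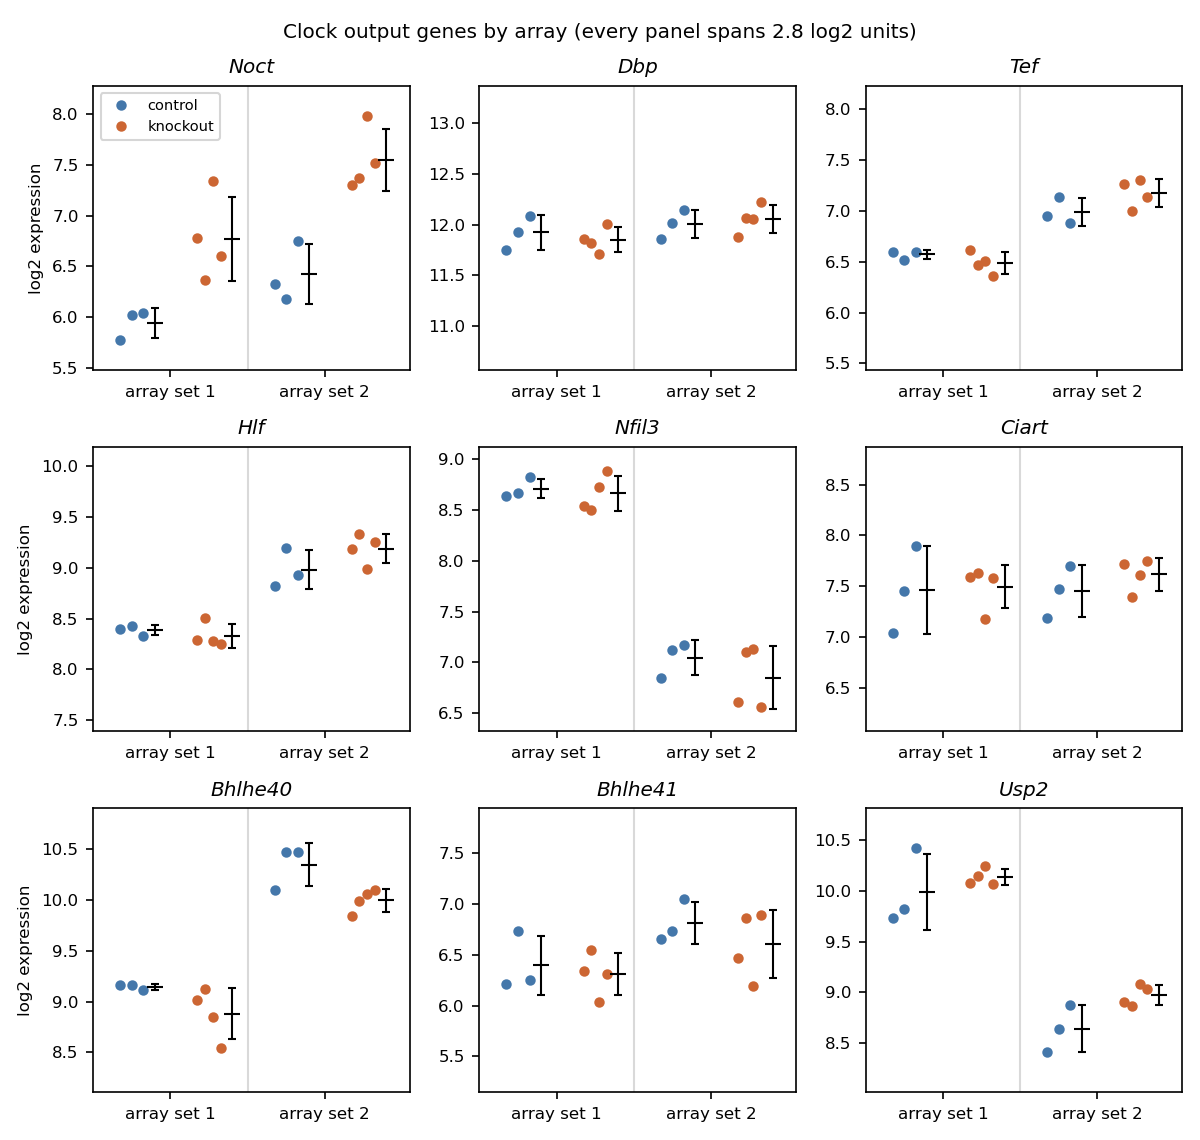
Log2 expression of the 9 clock output genes in each array, by array set (x axis) and group (colour); black marks are the group mean in that set with its SD (n = 3 controls and 4 knockouts per set). Noct is the only panel in which every knockout lies above every control of its set, in both sets (control against knockout means 5.94 and 6.77, 6.42 and 7.54). Nfil3, Bhlhe40 and Usp2 have the largest gaps between the sets.

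The PAR bZIP activators, which carry the clock signal to detoxification and other hepatic genes, had differences of at most 0.08 in size over both sets. Dbp, the most rhythmic of the 3 in liver, read 11.75, 11.93 and 12.09 in the controls of set 1 and 11.86, 11.82, 11.71 and 12.01 in the knockouts. In set 2 it read 11.86, 12.02 and 12.14 against 11.88, 12.07, 12.06 and 12.22. The groups overlapped in both sets, and the difference was -0.01 ± 0.08 (SE; 95% interval -0.18 to 0.16).

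Tef lay between 6.52 and 6.60 in the controls and 6.36 and 6.62 in the knockouts of set 1, and between 6.88 and 7.14 and 7.00 and 7.30 in set 2. Its difference was -0.08 in set 1 and 0.19 in set 2, of opposite sign, and 0.05 ± 0.08 (SE; 95% interval -0.12 to 0.22) over both. Hlf, the third activator, read 8.33 to 8.43 in controls and 8.25 to 8.51 in knockouts of set 1, and 8.82 to 9.20 and 8.99 to 9.33 in set 2. The Hlf difference was -0.06 in set 1, 0.21 in set 2 and 0.08 ± 0.09 (SE; 95% interval -0.11 to 0.26) over both. The change of sign between the sets did not pass the interaction test for either gene (limma adjusted p = 0.998 for both).

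Nfil3, the repressor at the D-box and a known repressor of Fgf21 in liver, read 8.64, 8.67 and 8.82 in controls and 8.54, 8.50, 8.73 and 8.88 in knockouts of set 1. In set 2 it read 6.85, 7.12 and 7.17 against 6.61, 7.10, 7.13 and 6.56. Knockout 5 and 8 were below every control of set 2, as knockout 1 and 2 were in set 1, but the groups overlapped in both. The difference was -0.12 ± 0.11 (SE; 95% interval -0.35 to 0.10).

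Ciart (CHRONO) and the basic helix-loop-helix proteins Bhlhe40 (DEC1) and Bhlhe41 (DEC2) are repressors that act back on Clock and Arntl. Ciart read 7.04, 7.45 and 7.90 in controls and 7.59, 7.63, 7.18 and 7.58 in knockouts of set 1, and 7.19, 7.47 and 7.70 against 7.72, 7.39, 7.61 and 7.75 in set 2. The groups overlapped in both sets. Its difference was 0.10 ± 0.13 (SE; 95% interval -0.17 to 0.37). Control 1 and control 4 had the lowest Ciart of their sets, and without them the difference was -0.07 ± 0.12 (SE), on the other side of 0.

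Bhlhe40 stood farthest below 0. It read 9.16, 9.16 and 9.11 in controls and 9.01, 9.12, 8.85 and 8.54 in knockouts of set 1, and 10.10, 10.47 and 10.47 against 9.84, 9.99, 10.06 and 10.10 in set 2. 6 of 8 knockouts lay below every control of their set, and the exceptions were knockout 2 and knockout 8. The difference was -0.31 ± 0.09 (SE; 95% interval -0.51 to -0.11), or 0.808-fold, at -0.27 in set 1 and -0.35 in set 2. It was -0.36 ± 0.10 (SE) without control 1 and control 4. Bhlhe41 ranged from 6.21 to 6.73 in controls and 6.04 to 6.55 in knockouts of set 1, and from 6.66 to 7.05 and 6.19 to 6.89 in set 2, with a difference of -0.15 ± 0.13 (SE; 95% interval -0.42 to 0.12).

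Usp2 encodes a deubiquitinase, an enzyme that takes ubiquitin off proteins and acts on clock components. It read 9.73, 9.82 and 10.42 in controls and 10.08, 10.15, 10.24 and 10.07 in knockouts of set 1, and 8.41, 8.64 and 8.88 against 8.91, 8.87, 9.08 and 9.03 in set 2. In set 1 control 3 was above all 4 knockouts, while in set 2 only knockout 6 lay below a control. The difference was 0.24 ± 0.11 (SE; 95% interval 0.01 to 0.46). It was 0.11 ± 0.11 (SE) without control 1 and control 4, which had the lowest Usp2 of their sets. The arrays gave 1 row for each of the 9 genes, so isoforms were not separated.

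Over the 9 genes, 5 differences were above 0, with a median of 0.05 and a median size of 0.12, against 0.00 and 0.08 over all genes. The difference of Noct was 0.98, and the largest among the other 8 was 0.31 in size, that of Bhlhe40.

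**Figure D2:**
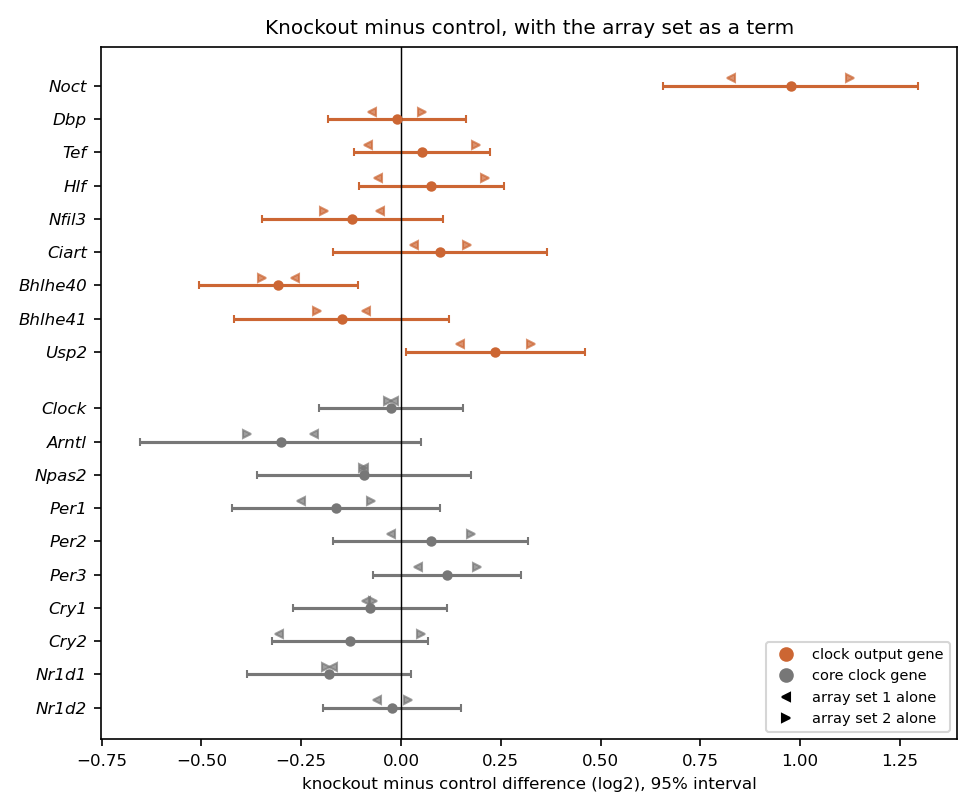
Knockout minus control difference on the log2 scale for the 9 clock output genes (orange) and 10 core clock genes (grey), with the array set as a term; bars are 95% intervals and triangles the differences in each set alone. Noct (0.98) lies apart from all other genes plotted, whose differences run from -0.31 (Bhlhe40) to 0.24 (Usp2).

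The core loop that drives these outputs showed no called gene. Of 15 measured core clock genes 0 were called in either direction (limma; 0 also at an unadjusted p under 0.05), 3 differences were above 0 and the median was -0.08. Arntl, the partner of Clock, had the largest difference, -0.30 ± 0.17 (SE; limma adjusted p = 0.570), and the activators that pair with it, Clock and Npas2, were at -0.02 ± 0.08 and -0.09 ± 0.13 (SE). The nuclear receptors Nr1d1 and Nr1d2 (REV-ERB alpha and beta), repressors of Arntl, were at -0.18 ± 0.10 and -0.02 ± 0.08 (SE). The period genes were at -0.16 ± 0.12 (Per1), 0.07 ± 0.12 (Per2) and 0.12 ± 0.09 (Per3), and the cryptochromes at -0.08 ± 0.09 (Cry1) and -0.13 ± 0.09 (Cry2; all SE). The 95% intervals reached from -0.65 (Arntl) to 0.32 (Per2).

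Further genes, tied to the clock or to Noct, were read from 4 other lists. Over these and the core clock list, 2 genes stood in 2 lists each, so the counts per list are not separate. Over all genes, 10.4% had an unadjusted p under 0.05, 5.53% with a higher and 4.83% with a lower level in knockout. Of 19 measured clock-controlled liver genes 0 were called (limma; 6 at an unadjusted p under 0.05, 5 of them higher), 15 differences were above 0, and the median was 0.16. The largest were those of Wee1, a kinase that holds back cell division, at 0.40 ± 0.11 (SE; limma adjusted p = 0.155), and Gys2, the liver glycogen synthase, at 0.35 ± 0.14 (SE; limma adjusted p = 0.349). Of 17 measured detoxification genes that depend on PAR bZIP factors, 1 was called higher and 0 lower, with a median of 0.05 (limma; 8 at an unadjusted p under 0.05, 6 of them lower). Differences in this list ran from -1.14 to 0.52, so the largest in size was a fall that was not called. The called gene was Ephx1, a microsomal epoxide hydrolase, which rose by 0.52 ± 0.08 (SE; limma adjusted p = 0.00873), from 11.05 to 11.57 in set 1 and from 11.06 to 11.59 in set 2. Its call held in 14 of 14 fits that each left out 1 array, but not without control 1 and control 4 together (0.51, adjusted p = 0.0566).

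The relatives of Noct were read as a family. Of 4 measured genes of the CCR4-type nuclease family 0 were called (limma; 0 at an unadjusted p under 0.05), with values from -0.14 ± 0.11 (SE; Angel1) to 0.06 ± 0.13 (SE; Angel2) and a median of 0.05. Because glucocorticoids are a timing signal for liver clock outputs, 13 glucocorticoid-responsive genes were also read. None was called higher and 1 was called lower, Mt1, a metallothionein, which fell by 0.50 ± 0.11 (SE; limma adjusted p = 0.0426). Of the 13 genes, 5 had an unadjusted p under 0.05 (limma), 2 of them higher and 3 lower. The differences ran from -1.15 to 0.41, with a median of -0.02. The Mt1 call held in 2 of 14 fits that left out 1 array (adjusted p up to 0.112), and it was not called without control 1 and control 4 (-0.47, adjusted p = 0.169).

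The gap between the array sets is a contrast that did not choose the genes. The sets were themselves cut from these same values, however, so the p-values of the gap describe its size and are no independent test. The gap was called for 7 of the 9 clock outputs (limma adjusted p under 0.05), 5 higher and 2 lower in set 2, against 55.4% of all genes. Nfil3 was lower in set 2 by -1.75 ± 0.11 (SE; limma adjusted p = 4.42e-10) and Usp2 by -1.24 ± 0.11 (SE; limma adjusted p = 2.63e-08). Bhlhe40 was higher by 1.16 ± 0.09, Hlf by 0.74 ± 0.09, Noct by 0.64 ± 0.15, Tef by 0.57 ± 0.08 and Bhlhe41 by 0.34 ± 0.13 (SE). Dbp (0.16 ± 0.08) and Ciart (0.07 ± 0.13; SE) were not called. For Nfil3, 97.9% of all genes had a gap of the same size or smaller, and for Ciart 13.4%. Of 15 core clock genes 12 were called, 11 of them higher in set 2. The median gap over all genes was 0.11, and the shares of all genes called higher or lower in set 2 were not counted, so nothing is read from these directions. What the sets stand for is not given in the sources used here.

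**Figure D3:**
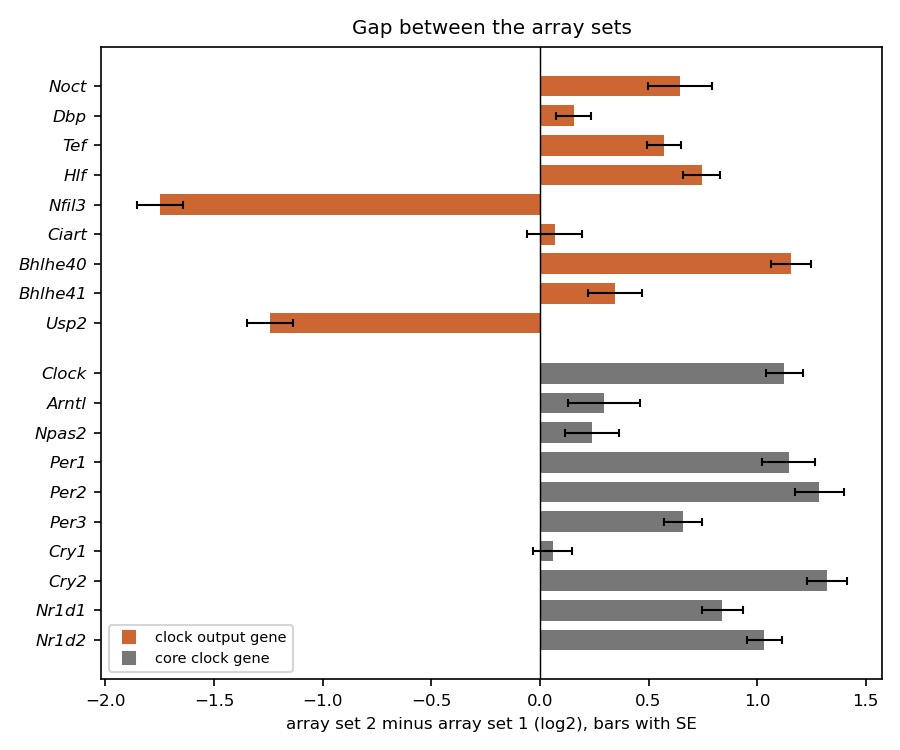
Difference between the array sets (set 2 minus set 1, log2, with SE) for the 9 clock output genes (orange) and 10 core clock genes (grey). Nfil3 (-1.75) and Usp2 (-1.24) are the genes plotted below 0, and Bhlhe40 (1.16) is the highest of the clock outputs.

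None of the 9 knockout differences was shown to depend on the set. The interaction of knockout and set was called for 0 of 9 genes and for 0 of all 19505 (0%; limma), with 0 of 9 and 943 genes at an unadjusted p under 0.05. With 3 controls and 4 knockouts per set such a test can miss differences.

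Samples of the same group and set also differed from each other. The spread within group and set was largest for Noct, with an SD of 0.32, at or above that of 92.1% of all genes, and smallest for Tef (0.11; 12.2%). Bhlhe41 and Ciart had an SD of 0.27, at or above 82.1% and 81.8% of genes, Nfil3 and Usp2 0.21, Bhlhe40 0.18, and Dbp and Hlf 0.14.

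Deviations from the mean of the own group and set do not contain the knockout difference. They were therefore used to ask whether the clock outputs moved together from sample to sample. Of 36 pairs 24 had a positive Pearson r over the 14 arrays, and 0 pairs passed after Benjamini-Hochberg adjustment over the 36 (2 had an unadjusted p under 0.05). Dbp and Ciart had the smallest p, with r = 0.71 (exact permutation p = 0.0201, adjusted p = 0.421) and Spearman's rho = 0.59 (exact permutation p = 0.0646, adjusted p = 0.485). Their r was 0.88 in set 1, 0.50 in set 2 and 0.80 without knockout 5 and control 1, the arrays farthest from the median of Dbp. It was 0.98 among the controls and 0.37 among the knockouts, and 0.50 without control 1 and control 4. Ciart and Usp2 also had r = 0.71 (exact permutation p = 0.0702, adjusted p = 0.421) and rho = 0.64 (exact permutation p = 0.0674, adjusted p = 0.485), at 0.66 in set 1, 0.84 in set 2 and 0.41 without control 1 and 3. Their r was 0.94 among the controls and -0.16 among the knockouts, of opposite sign, and 0.49 without control 1 and control 4. Dbp and Usp2, at 0.58, likewise had 0.93 among the controls, -0.07 among the knockouts and 0.31 without control 1 and control 4. No difference in r between the 6 controls and the 8 knockouts was tested, for these or the other pairs. Control 1 and control 4, which stood apart in their cell markers, had the lowest Dbp, Ciart and Usp2 of the controls of their sets. Noct and Usp2 had r = 0.47 (exact permutation p = 0.0292, adjusted p = 0.421) and rho = 0.53 (exact permutation p = 0.0657, adjusted p = 0.485), with 0.33 in set 1, 0.71 in set 2, 0.46 without knockout 3 and 7, 0.59 among the controls and 0.72 among the knockouts. Noct and Hlf ran in opposite directions, with r = -0.60 (exact permutation p = 0.0689, adjusted p = 0.421) and rho = -0.63 (exact permutation p = 0.0456, adjusted p = 0.485), at -0.57 in set 1, -0.67 in set 2, -0.51 without knockout 3 and 7, -0.44 among the controls and -0.69 among the knockouts. Noct had r between -0.34 and 0.40 with the other 6.

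**Figure D4:**
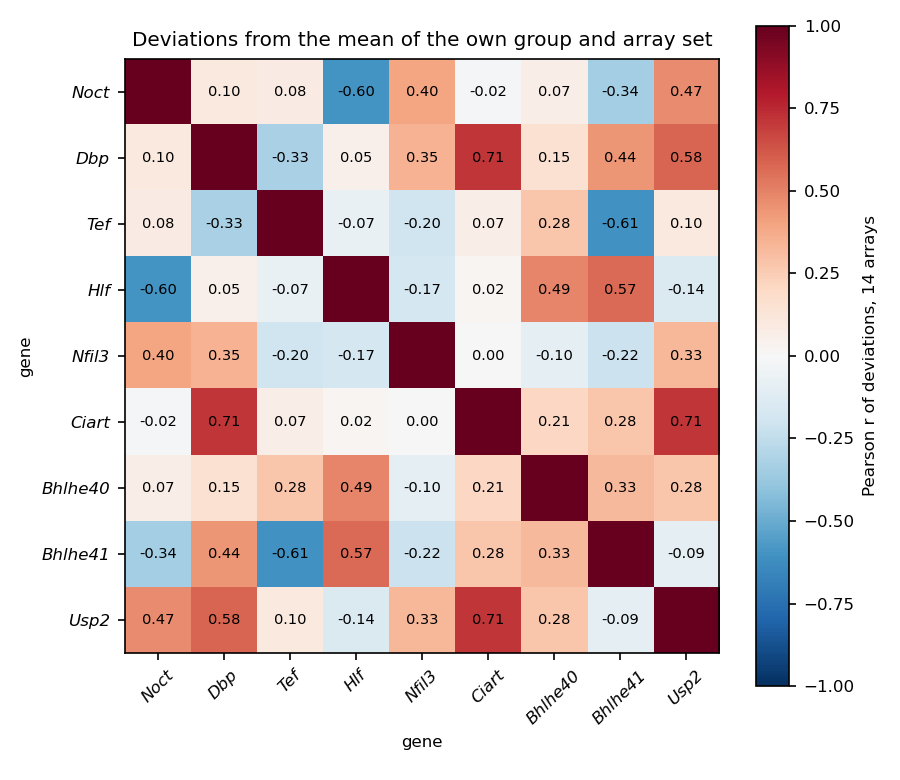
Pearson r between the 9 clock output genes over 14 arrays, after the mean of the own group and array set was subtracted from each value (colour and printed values). Dbp, Ciart and Usp2 have the highest values (0.58 to 0.71). These were 0.93 to 0.98 among the 6 controls and -0.16 to 0.37 among the 8 knockouts, a difference that was not tested. Without control 1 and control 4 they were 0.31 to 0.50. None of the 36 pairs passed after adjustment.

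With 10 core clock genes and the targeted genes, 108 further pairs were formed, and 0 passed after adjustment. Tef and Arntl had r = -0.61 (exact permutation p = 0.0182, adjusted p = 0.393) and rho = -0.71 (exact permutation p = 0.00844, adjusted p = 0.392), at -0.43 in set 1, -0.72 in set 2 and -0.54 without knockout 6 and control 5. Bhlhe41 and Nr1d1 had r = 0.72 (exact permutation p = 0.0151, adjusted p = 0.393) and rho = 0.72 (exact permutation p = 0.0109, adjusted p = 0.392), at 0.68 in set 1, 0.76 in set 2 and 0.69 without control 2 and knockout 7. Usp2 and Prkaa2 had the smallest p of this family, with r = 0.67 (exact permutation p = 0.00593, adjusted p = 0.393) and rho = 0.75 (exact permutation p = 0.00699, adjusted p = 0.392), at 0.60 in set 1, 0.83 in set 2 and 0.58 without control 3 and 6. Usp2 and Prkaa2 had r = 0.95 among the controls and 0.63 among the knockouts. Tef and Arntl had -0.46 and -0.70, and Bhlhe41 and Nr1d1 had 0.62 and 0.77. No difference between groups was tested. The controls that stood apart in their cell markers had the lowest Usp2 of their sets and were not left out together. How far the r of Usp2 and Prkaa2 rests on them was not tested. The 3 pairs named so far were chosen once the values were known, and they are not the 3 with the smallest p. Nfil3 and Clock (r = -0.49, exact permutation p = 0.0103, adjusted p = 0.393) came before Tef and Arntl and before Bhlhe41 and Nr1d1. So did Usp2 and Per2 (r = 0.75, exact permutation p = 0.0144, adjusted p = 0.393).

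The genes whose profile was most like that of Noct were found by Pearson r over the 14 arrays after the mean of the set was subtracted, among 11820 genes with a mean level of at least 5. They were Sugct (0.95), Tlcd4 (0.94), Chrna2 (0.90), Tsc22d1 (0.90) and Hsf2 (0.89). This measure contains the knockout difference, which was 0.39 for Sugct, 0.28 for Tlcd4, 0.67 for Chrna2, 0.99 for Tsc22d1 and 0.61 for Hsf2. With the mean of the group also removed, r was 0.80 for Sugct, 0.82 for Tlcd4, 0.54 for Chrna2, 0.67 for Tsc22d1 and 0.47 for Hsf2. The genes most like Dbp were Dtwd2 (0.92), Cops7a (0.89), Pipox (0.88), Cox8a (0.88) and Enox2 (0.85), with knockout differences between -0.04 and 0.09, and r between 0.85 and 0.94 with the group mean also removed. These r are the highest of all genes compared, and so are high in part by selection.

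Markers of other liver cells were read beside these results. Of 10 endothelium, 8 stellate, 9 Kupffer cell, 4 bile duct and 5 lymphocyte markers measured, 0 were called (limma; 1 at an unadjusted p under 0.05, a lymphocyte marker), with median differences of 0.03, -0.01, 0.05, -0.04 and 0.15. The mean endothelium level was 7.01 to 8.22 in controls and 7.39 to 8.08 in knockouts of set 1, and 7.57 to 8.34 and 7.96 to 8.46 in set 2. That of Kupffer cell markers was 8.01 to 8.88 and 8.10 to 8.93 in set 1, and 8.25 to 8.71 and 8.34 to 8.96 in set 2. The stellate, bile duct and lymphocyte means of the knockouts ranged from 7.64 to 8.00, 5.93 to 6.95 and 5.07 to 5.35 in set 1, against 7.45 to 8.16, 5.79 to 6.99 and 5.00 to 5.27 in the controls. In set 2 they ranged from 7.93 to 8.15, 5.44 to 6.03 and 4.98 to 5.23, against 7.94 to 8.30, 5.76 to 6.01 and 4.76 to 4.90. The groups overlapped for every marker list except the lymphocyte list in set 2, which was higher in all 4 knockouts; its part in the Noct difference was not tested.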

How the data were processed

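Liver RNA of 14 samples was hybridised to Affymetrix arrays. The authors' deposited table holds log2 expression, as its range of 2.13 to 13.8 shows, and per the submitters' processing notes RMA and Partek were used (no versions given). No normalization was added. Arrays have no read depth, and where background lies is not known.

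The 22206 rows were named through GEO's platform annotation, with symbols checked against an NCBI gene table, which gave 19572 rows with exactly 1 symbol and 19505 genes. For 55 genes with several rows, the brightest on average was kept. The array set was found by average-linkage clustering of the correlations between arrays. Differences between knockout and control came from limma 3.58.1 (lmFit, eBayes; R 4.3.3), array set being a covariate (11 residual degrees of freedom), Benjamini-Hochberg adjustment over all genes and a threshold of 0.05. Correlations between genes used deviations from the mean of the own group and set, with all 20736 reorderings within these 4 cells.

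The clock output genes, the gene lists, the tests and the alternatives were chosen with earlier results of these data known; the correlations with core clock and targeted genes were added after seeing the data. Named genes were all 9 clock output genes, the targeted genes, 10 core clock genes, up to 4 called genes of each other list (or, with none called, the 2 with the largest absolute difference), and the 5 genes most like Noct and most like Dbp, leaving out predicted genes, RIKEN clones and small RNA genes. The fits were tested on simulated data.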

Additional observations from a re-analysis of the deposited data

How the results depend on the processing

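The Noct difference lay between 0.83 and 1.13 over 27 alternatives, positive in all. This contrast chose the gene, so its calls are no support. It fell short of the threshold without the set term (0.98), without control 1 and control 4 (0.91), without knockout 7 and 8 (0.86), or in set 1 (0.83) or set 2 alone (1.13). The count over all genes was 0 without the set term (655 at an unadjusted p under 0.05), 270 over genes above the median level, 325 with trend and robust options, 26 without control 1 and control 4, 67 with knockout 5 and 7 and knockout 6 and 8 averaged, 12 without knockout 7 and 8, 2 in each set alone, and 44 to 132 without 1 array, with the count more than 1.5 times smaller without any array but control 3, control 6 and knockout 6. The 2 calls in the other lists became 0 without the set term, without control 1 and control 4 and in each set alone, 6 with trend and robust options, 1 with array weights, averaging or without knockout 7 and 8, and 1 to 4 without 1 array. The cause of these shifts was not tested. Some of these fits held fewer arrays or genes. Those without the set term, with trend and robust options or with array weights held all of them. Without the set term the SE of the Noct difference was 0.23, against 0.15 with it. The replicate block gave 0.97 for Noct and 164 calls, 137 of them shared; deviations of same-numbered arrays correlated at 0.02 to 0.09, and 0 of 6 controls and 1 of 6 knockouts correlated best with the array of the same number, so the numbers were not taken as pairs. Correlated pairs of the 9 genes called were 0 in the alternatives run, none of which averaged knockout 5 with 7 and 6 with 8. What limits precision was not tested.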
